A study of Rattus norvegicus with 9 samples.

Results

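The 4 genes described here encode the route by which heart muscle takes up ketone bodies and burns them, Slc16a1, Bdh1, Oxct1 and Acat1. They were taken by gene symbol from a table of 35843 rat genes, in which each symbol occurred once, and all 4 passed the filter on low values in each comparison. RNA was sequenced from the left ventricle of adult male Sprague-Dawley rats at day 28, with 3 rats in each group. Group Sham was operated without infarction and received saline by daily gavage, group MI had the left anterior descending coronary artery ligated (myocardial infarction) and received saline, and group MI + DAPA (1st d), called group DAPA from here on, had the same ligation and received dapagliflozin (DAPA), an inhibitor of the sodium-glucose cotransporter SGLT2, at 1 mg/kg by daily gavage from the first day. According to the study's methods, its molecular work mainly used the border of the infarct, and the matching part of the heart in group Sham. For the RNA-seq itself, its methods name only the left ventricles. Its results call the tissue of groups MI and DAPA infarct myocardium, so the exact site is not settled. The values were FPKM, fragments scaled by transcript length and by a factor for each library, so that levels of different genes are on a per-length scale.

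Ketone bodies are made in the liver from fatty acids and reach the heart in the blood. Beta-hydroxybutyrate and acetoacetate enter the cell through the monocarboxylate transporter MCT1, encoded by Slc16a1, which also carries lactate and pyruvate. In the mitochondrion, beta-hydroxybutyrate dehydrogenase (Bdh1) oxidises beta-hydroxybutyrate to acetoacetate, succinyl-CoA:3-oxoacid CoA transferase (Oxct1, also called SCOT) activates acetoacetate with CoA taken from succinyl-CoA, and the thiolase of Acat1 splits acetoacetyl-CoA into acetyl-CoA for the TCA cycle. Oxct1 catalyses the committed step of ketone body oxidation and is nearly absent from hepatocytes, which therefore export ketone bodies. The failing heart is known to make more use of ketone bodies, and inhibitors of SGLT2 raise their level in blood.

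The promoters of Oxct1 and Slc16a1, the members that passed the test against group Sham, are shown beside that of Bdh1, which did not pass it in any comparison. Each line gives 250 bases up to the transcription start of the RefSeq model on build GRCr8, 5′ to 3′ on the strand of the gene, and capitals mark GGGCGG or its reverse complement CCGCCC, the box bound by Sp1.
Oxct1 promoter, chr2:54963714-54963963, plus strand: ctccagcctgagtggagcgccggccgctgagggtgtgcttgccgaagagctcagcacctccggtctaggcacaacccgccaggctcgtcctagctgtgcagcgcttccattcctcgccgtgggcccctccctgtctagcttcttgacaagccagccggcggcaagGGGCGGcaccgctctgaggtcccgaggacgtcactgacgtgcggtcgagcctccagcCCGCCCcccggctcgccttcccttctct
Slc16a1 promoter, chr2:194812410-194812659, plus strand: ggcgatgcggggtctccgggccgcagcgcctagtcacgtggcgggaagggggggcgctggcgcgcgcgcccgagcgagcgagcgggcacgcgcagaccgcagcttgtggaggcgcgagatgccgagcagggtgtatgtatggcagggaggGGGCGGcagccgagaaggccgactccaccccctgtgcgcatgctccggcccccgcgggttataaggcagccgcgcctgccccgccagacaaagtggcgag
Bdh1 promoter, chr11:82842637-82842886, minus strand: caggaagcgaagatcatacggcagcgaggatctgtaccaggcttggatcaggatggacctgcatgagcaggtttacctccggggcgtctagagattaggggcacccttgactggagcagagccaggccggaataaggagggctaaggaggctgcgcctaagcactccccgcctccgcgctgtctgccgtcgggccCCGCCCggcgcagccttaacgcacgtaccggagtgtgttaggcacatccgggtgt

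Windows of 300 bases, which reach 50 bases past the start, were searched on both strands for 4 motifs. GGGCGG was present in all 4 members, with 2 matches each in Oxct1 and Acat1 and 1 each in Slc16a1 and Bdh1, and in 33.1% of the 33469 rat promoter windows. In Oxct1 the matches began 85 and 28 bases before the start. CCAAT was found in Acat1 only, with 2 matches, and in 37.5% of all windows. Neither TCAAGGTCA, the element of the estrogen-related receptors, nor AGGTCA, the nuclear receptor core site contained in it, occurred in a member window, against 0.433% and 16.2% of all windows. The G and C content was 72.7% in Slc16a1, 69% in Oxct1, 62% in Bdh1 and 60% in Acat1, compared with a median of 51.7% over all windows, and the window of Slc16a1 held 39 CpG dinucleotides against a median of 7.

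The reads recovered from the FPKM values numbered 13597239 to 17210909 in each library. Without the mitochondrial genome 5702454 to 13171891 were left, and group Sham had the fewest. Mitochondrial genome transcripts took 61.1% to 66.9% of the reads in group Sham, 7.07% to 19.1% in the MI rats and 17.5% to 32% in group DAPA. The FPKM values as deposited were scaled between libraries by more than the read totals. The median gene was already level between libraries, with median-of-ratios factors of 0.9975 to 1.011. The members were covered by at least 1427 reads per rat for Oxct1, 723 for Acat1, 201 for Slc16a1 and 116 for Bdh1, the last giving a counting error of 9.28%, below the spread between rats in each group. MI replicate 2 stood apart from the other libraries of its group, with the lowest cardiomyocyte markers and high immunoglobulin transcripts.

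Oxct1 (ENSRNOG00000043094) was the most abundant of the 4 genes in groups MI and DAPA. Its level was 47.1, 41.7 and 52.2 FPKM in the Sham rats, 94.3, 49.7 and 188 FPKM in the MI rats and 163.6, 202.6 and 125.2 FPKM under DAPA. All 3 DAPA-treated rats were above all 3 Sham rats, whereas the MI rats spread over nearly the whole range and overlapped with both groups. The mean was 47 ± 5.24 FPKM in group Sham, 110.7 ± 70.6 FPKM in the MI rats and 163.8 ± 38.7 FPKM in group DAPA (SD, n = 3 each). Among 12880 named genes the mean of Oxct1 ranked 1246th in group Sham, 544th in the MI rats and 410th in group DAPA.

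Slc16a1 (ENSRNOG00000019996) was higher in every infarcted rat than in any Sham rat. The level was 7.99, 12.1 and 9.18 FPKM in group Sham, 26.6, 17.9 and 43.2 FPKM in the MI rats and 47.3, 33.5 and 23.6 FPKM in group DAPA. The groups MI and DAPA overlapped over most of their range. The mean was 9.77 ± 2.14, 29.3 ± 12.9 and 34.8 ± 11.9 FPKM in the 3 groups (SD, n = 3 each), and the transporter ranked 5506th in group Sham, 2074th in the MI rats and 1820th with DAPA.

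Acat1 (ENSRNOG00000007862) stood at 31.6, 55.3 and 52.3 FPKM in group Sham, 46, 32 and 78.3 FPKM in the MI rats and 74.1, 101.4 and 63.5 FPKM in group DAPA. The DAPA-treated rats were all above the Sham rats, and the MI rats overlapped with both. Its mean was 46.4 ± 12.9 FPKM in group Sham, 52.1 ± 23.7 FPKM in the MI rats and 79.7 ± 19.5 FPKM in group DAPA (SD, n = 3 each). Group Sham had Oxct1 and Acat1 at nearly the same mean level, a difference well inside the SD.

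Bdh1 (ENSRNOG00000001736) was the least abundant member in every rat. The rats gave 6.13, 7.32 and 5.83 FPKM in group Sham, 4.9, 4.86 and 9.74 FPKM in the MI rats and 7.45, 8.4 and 5.84 FPKM in group DAPA. All 3 groups overlapped, and both the lowest and the highest value were from MI rats. The mean was 6.43 ± 0.792, 6.5 ± 2.81 and 7.23 ± 1.29 FPKM (SD, n = 3 each).

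**Figure D1:**
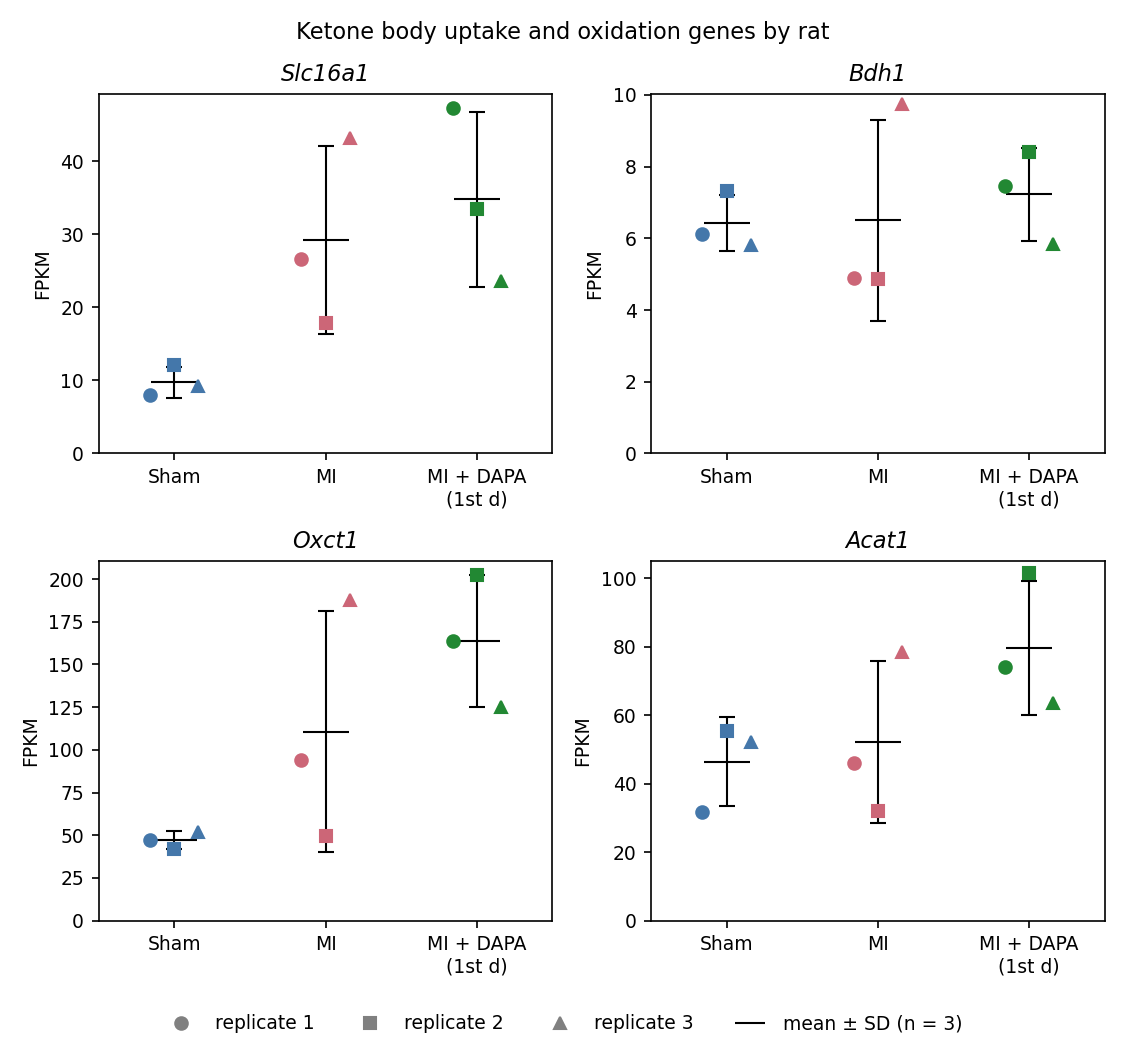
FPKM (vertical axes, from 0) of Slc16a1, Bdh1, Oxct1 and Acat1 in each rat of groups Sham, MI and DAPA, the last marked MI + DAPA (1st d). Each symbol is a rat, with the shape giving the replicate number, and the bars show the mean ± SD of 3 rats. The DAPA-treated rats lie above the Sham rats in Slc16a1, Oxct1 and Acat1, and MI replicate 3 is the highest MI rat in all 4 panels.

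Group MI vs. group Sham asks what infarction did to these genes in rats that received saline. The transporter rose and the enzymes did not pass the test: Slc16a1 was higher by 1.42 ± 0.32 (SE, n = 3 against 3) on the log2(FPKM + 1) scale, with a limma Benjamini-Hochberg adjusted p of 0.0126 and a 3-fold ratio of mean FPKM. Oxct1 had a log2 difference of 1.02 ± 0.43 (SE) and a ratio of means of 2.35, with an unadjusted limma p of 0.0494 and an adjusted p of 0.101. Acat1 had a difference of 0.11 (95% interval -0.72 to 0.94, limma adjusted p = 0.827), and Bdh1 one of -0.04 (95% interval -0.66 to 0.58, limma adjusted p = 0.914). Thus 1 of the 4 members passed an adjusted p of 0.05, against 39% of the 13485 genes tested. By the study's criterion, an unadjusted p under 0.05 with an absolute log2 fold change over 1, 2 of the 4 passed against 22.4% of all genes. The groups did not overlap in 1 member, against 54.6% of all genes. Without MI replicate 2 the difference in Oxct1 was 1.49, with an adjusted limma p of 0.0143. Without MI replicate 3 it was 0.54.

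Group DAPA vs. group MI asks what the drug added in infarcted rats. None of the 4 members passed the test. The log2 difference was 0.74 in Oxct1 (95% interval -0.37 to 1.84, limma adjusted p = 0.609), 0.67 in Acat1 (-0.14 to 1.48, limma adjusted p = 0.559), 0.27 in Slc16a1 (-0.59 to 1.14, limma adjusted p = 0.784) and 0.18 in Bdh1 (-0.46 to 0.83, limma adjusted p = 0.808). The intervals reach from a decrease to more than a doubling in Oxct1, Acat1 and Slc16a1, so the data fixed neither the size nor the absence of a drug effect. By limma, 0% of the 13251 genes tested passed an adjusted p of 0.05, and 1125 genes had an unadjusted p under 0.05. The study's criterion was met by 0 of 4 members and by 2.06% of all genes, and the groups did not overlap in 0 members and in 13.8% of all genes. The order of the MI rats, with replicate 2 lowest and replicate 3 highest, was shared by all 4 members, by all 14 cardiomyocyte markers measured and by 21% of the genes tested. In Bdh1, MI replicates 1 and 2 were nearly equal. Without MI replicate 2 the log2 differences were 0.27 in Oxct1, 0.37 in Acat1, -0.02 in Slc16a1 and 0.04 in Bdh1, and without MI replicate 3 they were 1.22, 1.01, 0.59 and 0.47, none of them past the adjusted threshold by limma.

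Group DAPA vs. group Sham compares treated infarcted hearts with hearts without infarction. Oxct1 and Slc16a1 rose. Oxct1 was higher by 1.76 ± 0.21 (SE, n = 3 against 3) on the log2(FPKM + 1) scale, a 3.48-fold ratio of mean FPKM, with a limma adjusted p of 0.00236. Slc16a1 was higher by 1.70 ± 0.27 (SE), a 3.56-fold ratio, with a limma adjusted p of 0.00521. Acat1 had a difference of 0.78 ± 0.27 (SE) and a ratio of 1.72, with an unadjusted limma p of 0.0195 and an adjusted p of 0.062. Bdh1 had a difference of 0.14 (-0.29 to 0.58, limma adjusted p = 0.603). Of the 4 members, 2 passed an adjusted p of 0.05, against 28.6% of 13359 genes tested, and 2 met the study's criterion, against 17.7%. The groups did not overlap in 3 members, against 46.5% of all genes. This comparison shares the Sham rats with MI vs. Sham and the treated rats with DAPA vs. MI, so the 3 sets of values are not independent.

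**Figure D2:**
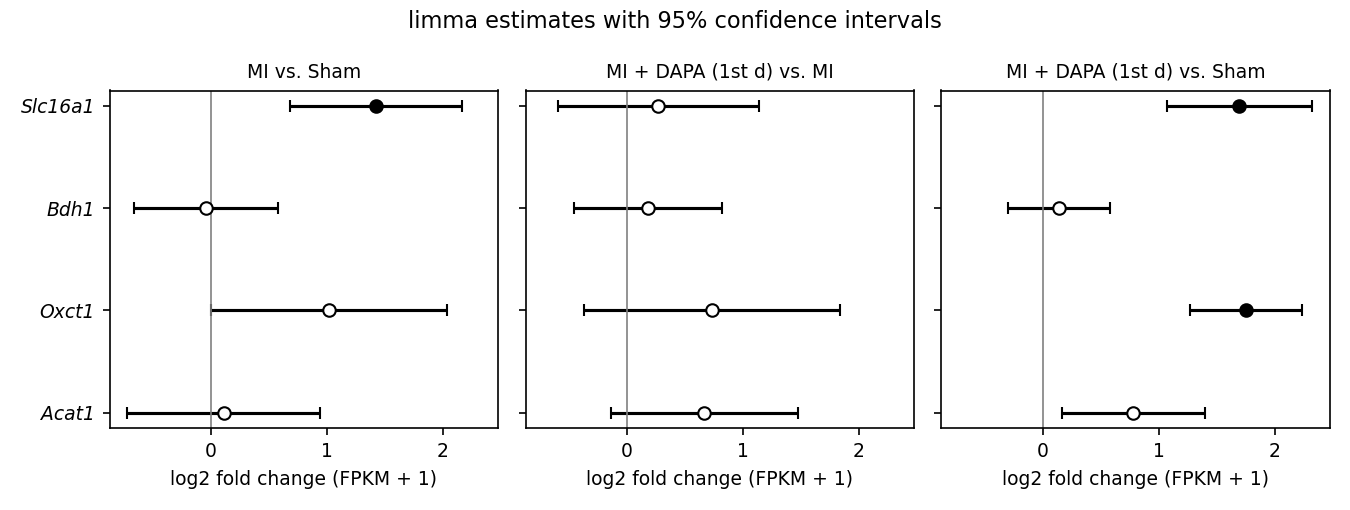
Differences between groups for the 4 genes (rows) in the 3 comparisons (panels), as log2 fold change of FPKM + 1 on the horizontal axis. Points are limma estimates, bars are 95% confidence intervals, and filled points have an adjusted p under 0.05. Filled points are Slc16a1 against group Sham in both infarcted groups and Oxct1 in the DAPA-treated group.

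Ratios of FPKM within each rat set the members against each other and do not depend on the scaling between libraries. The ratio of Oxct1 to Bdh1 FPKM was 7.69, 5.7 and 8.96 in the Sham rats, 19.3, 10.2 and 19.3 in the MI rats and 22, 24.1 and 21.4 in the DAPA-treated rats. The groups followed each other without overlap, from group Sham through group MI to group DAPA. The share of all gene pairs without such overlap was not counted. In plain FPKM, 54.6% of all genes did not overlap in MI vs. Sham, 13.8% in DAPA vs. MI and 46.5% in DAPA vs. Sham. On the log2(FPKM + 1) scale the ratio of Bdh1 to Oxct1 differed by -1.06 in MI vs. Sham, by -0.55 in DAPA vs. MI and by -1.62 in DAPA vs. Sham. In each of the 3 the two-sided exact permutation test gave p = 0.1, its minimum for 3 against 3 rats, and after adjustment over the 6 pairs of members these were 0.15, 0.3 and 0.12. Without MI replicate 2 the difference in DAPA vs. MI was -0.23.

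Slc16a1 was at 1.3 to 1.66 times the FPKM of Bdh1 in the Sham rats, 3.69 to 5.44 times in the MI rats and 3.99 to 6.35 times with DAPA. Oxct1 was at 0.754 to 1.49 times the FPKM of Acat1 in group Sham, at 1.55 to 2.4 times in the MI rats and at 1.97 to 2.21 times in group DAPA. The MI and DAPA-treated rats overlapped in both ratios. The ratio of Oxct1 to Slc16a1 overlapped between all groups. Oxct1 was 3.44 to 5.9 times Slc16a1 in group Sham, 2.77 to 4.35 times in the MI rats and 3.46 to 6.05 times with DAPA. The exact permutation tests, run on the ratios of log2(FPKM + 1) scale, gave p-values of 0.3, 0.3 and 0.7 in MI vs. Sham, DAPA vs. MI and DAPA vs. Sham. Unlike the FPKM ratios, that scale is not wholly free of the scaling between libraries. Acat1 was at 5.16 to 8.97 times Bdh1 in group Sham, 6.59 to 9.39 times in the MI rats and 9.945 to 12.07 times with DAPA. In this ratio too, the DAPA-treated rats overlapped with neither other group. On the log2(FPKM + 1) scale the exact permutation p was 0.1 against group MI and group Sham, or 0.3 and 0.12 adjusted. Acat1 was at 3.955 to 5.69 times Slc16a1 in group Sham. In the MI rats it was at 1.73 to 1.81 times and with DAPA at 1.57 to 3.03 times. No pair passed 0.05, which this design cannot reach.

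In whole tissue, fewer cells of a type and less RNA per cell cannot be told apart. Of the 16 cardiomyocyte markers listed, 14 were measured and none was at 0 in all rats. Their summed level was 7420 to 10898 FPKM in group Sham, 2261 to 10994 FPKM in the MI rats and 8523 to 17750 FPKM in group DAPA, the lowest being MI replicate 2. The 8 fibroblast markers, all measured, summed to 436.3 to 712.8 FPKM in group Sham, 3770 to 7367 FPKM in the MI rats and 2321 to 4060 FPKM with DAPA. The 9 macrophage markers summed to 99.97 to 220.6, 830.1 to 1575 and 437.7 to 964.6 FPKM. The measured B and plasma cell markers, 5 of 6, were at 5.58 to 7.47 FPKM in group Sham and 10.9 to 15.9 FPKM with DAPA, but at 35.1, 3650 and 634.4 FPKM in MI replicates 1, 2 and 3. T cell markers (5 of 5) reached 97.98 FPKM in MI replicate 2, and lay between 7.46 and 26.2 FPKM in the other rats. Endothelial markers (7 of 8, with Cldn5 at 0 in all rats) summed to 845 to 949.4 FPKM in group Sham, 229.8 to 299.9 FPKM in the MI rats and 318.2 to 359.5 FPKM with DAPA. The adipocyte list (5 of 5), nearly all of it Fabp4, which capillary endothelium of the heart also makes, was at 3923 to 5575, 171.7 to 713.4 and 559.2 to 1077 FPKM. This sum hides the low genes of the list. Adipoq, Plin1 and Cidec were at 0 in all Sham rats, with means of 0.33, 0.142 and 0.126 FPKM in group MI. With DAPA their means were 3.44, 0.992 and 0.698 FPKM. Lep was at or below 0.232 FPKM in every rat. Smooth muscle markers (4 of 4) ranged over 291.6 to 1357, 481.8 to 663.9 and 433.5 to 687.7 FPKM, and erythroid markers (5 of 8) over 295.3 to 5919, 778.6 to 1318 and 14.1 to 499 FPKM. The part of these cell types in the differences of the members was not tested.

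Set against the mean log2(FPKM + 1) of the cardiomyocyte markers in the same rat, each member had its highest group mean in group MI. Oxct1 stood at -2.27 ± 0.31 in group Sham, -0.58 ± 0.16 in the MI rats and -1.07 ± 0.14 in group DAPA (SD, n = 3 each). In this measure the groups did not overlap: the MI rats lay between -0.69 and -0.39, the DAPA-treated rats between -1.14 and -0.91 and the Sham rats between -2.53 and -1.93. The difference was thus 1.69 in MI vs. Sham and 1.20 in DAPA vs. Sham, while DAPA vs. MI gave -0.48, the opposite sign to the FPKM. Each had an exact permutation p of 0.1, the minimum. All 14 markers were higher in DAPA vs. MI, with a median log2 difference of 1.26. In MI vs. Sham 10 of the 14 were lower. Any gene that rose by less than the marker mean in DAPA vs. MI turns negative here, so this sign is not particular to the members.

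Slc16a1 followed the same order relative to the markers, at -4.44 ± 0.26 in group Sham, -2.35 ± 0.48 in the MI rats and -3.30 ± 0.40 with DAPA (SD, n = 3 each), again without overlap between any of the groups and with an exact permutation p of 0.1 in each comparison. Acat1 was at -2.32 ± 0.18, -1.54 ± 0.47 and -2.10 ± 0.20, and its DAPA-treated rats overlapped with both other groups. Bdh1 was at -4.96 ± 0.31, -4.34 ± 0.72 and -5.37 ± 0.24, with MI replicate 2 the highest at -3.51. MI replicates 1 and 3, at -4.70 and -4.80, lay within the range of the Sham rats (exact permutation p = 0.3 in MI vs. Sham). The highest mean of Bdh1 in group MI thus rested on MI replicate 2. Without MI replicate 2, Bdh1 differed by 0.21 in place of 0.63 in MI vs. Sham and by -0.62 in place of -1.04 in DAPA vs. MI. Acat1 then differed by 0.51 in place of 0.78 and by -0.29 in place of -0.55. MI replicate 2 was the highest MI rat in this measure and the lowest in FPKM for all 4 members. The share of all genes without overlap relative to the markers was not counted. In plain FPKM that share was 54.6% in MI vs. Sham, 13.8% in DAPA vs. MI and 46.5% in DAPA vs. Sham.

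**Figure D3:**
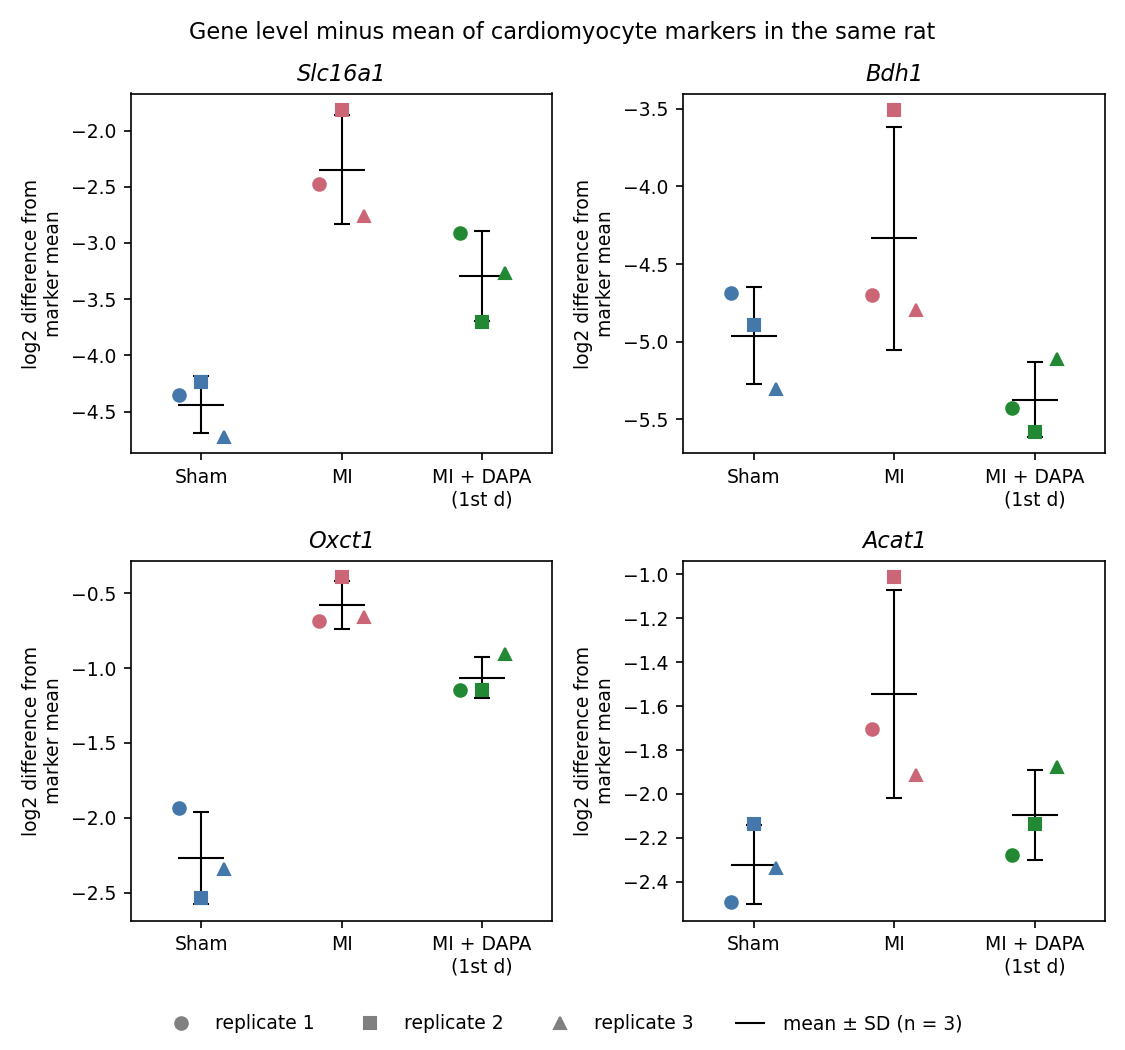
Log2(FPKM + 1) of each gene minus the mean of 14 cardiomyocyte markers in the same rat (vertical axes, log2 units, each panel with its own range), by group, with mean ± SD of 3 rats and the replicate number as symbol shape. In Slc16a1 and Oxct1 the groups do not overlap, group Sham being lowest and group MI highest. The share of all genes without overlap in this measure was not counted.

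The scaling between libraries bears on every level. When each library was rescaled to its total over all genes, mitochondrial genome included, the median gene was higher by 1.29 in MI vs. Sham, shifted by -0.34 in DAPA vs. MI and higher by 1.00 in DAPA vs. Sham (log2). Relative to that median, MI vs. Sham gave 1.57 for Slc16a1, 1.26 for Oxct1, 0.34 for Acat1, and Bdh1 lay at the median. DAPA vs. Sham gave 1.93 for Oxct1, 1.79 for Slc16a1, 0.95 for Acat1 and 0.16 for Bdh1. DAPA vs. MI gave 0.71 for Oxct1, 0.65 for Acat1, 0.26 for Slc16a1 and 0.20 for Bdh1. Taking off the median largely undoes the rescaling, so these values are no separate check on the scaling. Before it was taken off, Bdh1 gave 1.29 in MI vs. Sham, with a limma adjusted p of 0.00175.

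Around the 4 members, 35 other genes of ketone body handling and neighbouring steps were listed, of which 30 were in the table. In MI vs. Sham, 21 were tested and 5 rose and 1 fell by limma at an adjusted p of 0.05, against 39% of all genes. Emb, described with the transporters, is counted among those that rose, although it passed the filter through the MI rats alone. In DAPA vs. Sham, 20 were tested and 6 rose and 1 fell, against 28.6% of all genes. In DAPA vs. MI, 23 were tested and none passed, with 5 higher and 0 lower at an unadjusted p under 0.05, which 8.49% of all genes had in either direction. The median log2 difference of the tested genes was 0.15, 0.49 and 0.21 in these comparisons, against -0.01, 0.01 and -0.02 over all genes tested. Without MI replicate 2, the number past the adjusted threshold in MI vs. Sham was 3 in place of 6, and that at an unadjusted p under 0.05 in DAPA vs. MI was 1 in place of 5.

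Among the transporters, Slc16a3, which encodes MCT4, the lactate exporter of glycolytic cells, was at 0.863 to 1.87 FPKM in group Sham, 3.17 to 6.06 FPKM in the MI rats and 2.67 to 6.1 FPKM with DAPA. It rose by 1.19 in MI vs. Sham (limma adjusted p = 0.014) and by 1.23 in DAPA vs. Sham (limma adjusted p = 0.0215). Bsg, or basigin, the chaperone that carries MCT1 and MCT4 to the plasma membrane, was at 122.2 to 141.8 FPKM in group Sham, 190.9 to 222.6 FPKM in the MI rats and 242.3 to 274.8 FPKM with DAPA, in 3 ranges without overlap. It rose by 0.65 (limma adjusted p = 0.0127) and by 0.95 (limma adjusted p = 0.00594) against group Sham, and DAPA vs. MI gave 0.31 (limma adjusted p = 0.565). Of all genes, 54.6% did not overlap in MI vs. Sham, 46.5% in DAPA vs. Sham and 13.8% in DAPA vs. MI. Emb, embigin, a related chaperone, was at 0.538, 0.183 and 0 FPKM in the Sham rats and 4.47, 5.84 and 1.62 FPKM in the MI rats. It passed the filter through the MI rats alone, so its difference of 1.92 (limma adjusted p = 0.00881) is a description, and without MI replicate 2 it was not tested.

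Slc16a7, encoding MCT2, lay between 0.229 and 1.77 FPKM over the 9 rats and passed the filter only in DAPA vs. MI, where its difference was -0.32 (limma adjusted p = 0.721). In DAPA vs. Sham, Slc16a6, another member of the transporter family, was the single listed gene that was lower past the adjusted threshold. It fell by 0.64 (limma adjusted p = 0.0401). When scaled to the total over all genes it gave 0.30, or -0.70 relative to the median. Of the mitochondrial pyruvate carrier, Mpc2 rose by 0.87 in that comparison (limma adjusted p = 0.0159), and Mpc1 gave 0.89 in DAPA vs. MI with an unadjusted limma p of 0.0498 and 0.56 without MI replicate 2. Slc5a8, the sodium-coupled monocarboxylate transporter, was listed at 0 in all rats.

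Among the enzymes, Bdh2, a cytosolic dehydrogenase named for its likeness to Bdh1, was at 0.909 to 2.61 FPKM in group Sham, 5.06 to 6.5 FPKM in the MI rats and 4.19 to 12.3 FPKM with DAPA. It rose by 1.25 in MI vs. Sham (limma adjusted p = 0.0113) and by 1.39 in DAPA vs. Sham (limma adjusted p = 0.0388), from only 11 to 31 reads in the Sham libraries. Acat2, the cytosolic thiolase, was at 0.468 FPKM or at 0 in the Sham rats and at 0.396 to 1.81 FPKM in the others, and was tested in DAPA vs. MI only (difference -0.12, limma adjusted p = 0.905). Acaa2, the mitochondrial 3-ketoacyl-CoA thiolase of fatty acid oxidation, was at 35.6 to 51.3 FPKM in the MI rats and 66.9 to 124.5 FPKM with DAPA. Its values did not overlap between these groups, as in 13.8% of all genes. It was the listed gene that met the study's criterion in DAPA vs. MI, with a difference of 1.13, an unadjusted limma p of 0.00425 and an adjusted p of 0.558, and 0.98 with an unadjusted p of 0.0134 without MI replicate 2. Hadha and Hadhb, the subunits of the trifunctional protein, gave 0.63 and 0.57 there (unadjusted limma p of 0.0219 and 0.045), and 0.50 and 0.37 without MI replicate 2.

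Oxct1 draws on succinyl-CoA. Suclg1, the shared alpha subunit of succinyl-CoA ligase, in MI vs. Sham fell by 0.72 (limma adjusted p = 0.0407), its levels being 73.7 to 93 FPKM in group Sham and 34.8 to 61 FPKM in group MI, and had -0.50 with an adjusted p of 0.0802 without MI replicate 2. When scaled to the total over all genes it gave 0.81, or -0.48 relative to the median of all genes. In DAPA vs. MI it gave 0.84 with an unadjusted limma p of 0.0285, and 0.61 with an unadjusted p of 0.0808 without MI replicate 2. The ATP-forming beta subunit Sucla2 rose by 0.87 (limma adjusted p = 0.0194) and the GTP-forming Suclg2 by 0.57 (limma adjusted p = 0.0291) in DAPA vs. Sham. Ogdh, of the complex that makes succinyl-CoA in the TCA cycle, rose by 0.62 in MI vs. Sham (limma adjusted p = 0.0173), with an adjusted p of 0.0562 without MI replicate 2. The receptors listed, Hcar2 for beta-hydroxybutyrate and Ffar3, were below 1 FPKM in all 9 rats.

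**Figure D4:**
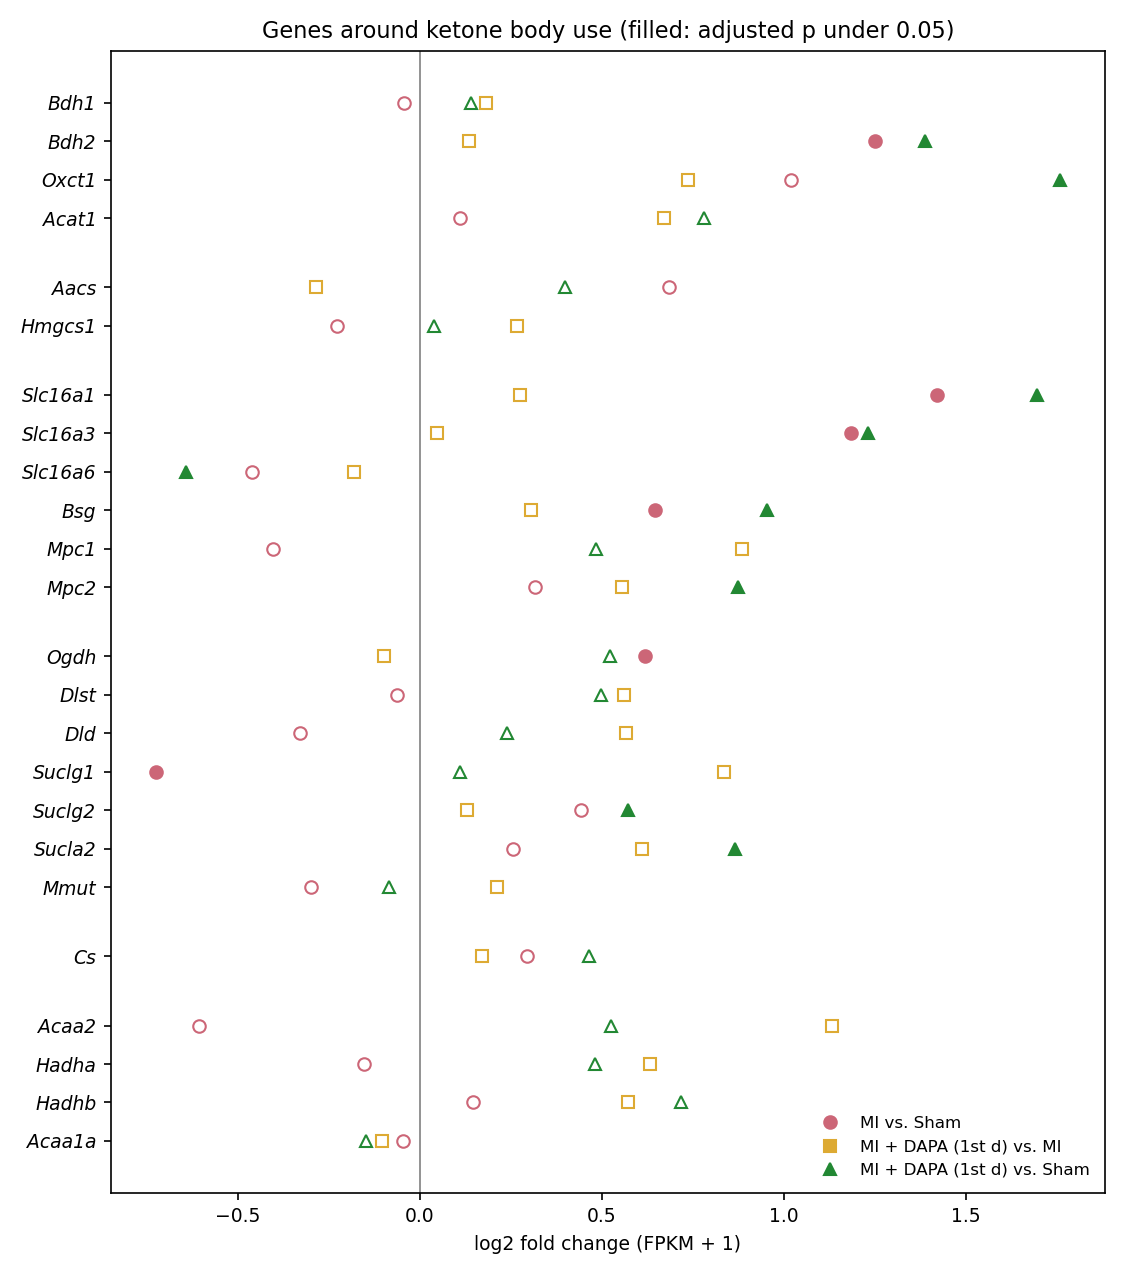
Log2 fold changes of FPKM + 1 (horizontal axis) from limma for the 24 listed genes tested in all 3 comparisons (rows, in blocks by step of the pathway, members included). Symbols and colours mark the comparison, and filled symbols have an adjusted p under 0.05. Suclg1 in MI vs. Sham and Slc16a6 in DAPA vs. Sham are the filled symbols left of 0, and no symbol of DAPA vs. MI is filled.

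The genes whose level most resembled each member were ranked by Pearson's r of log2(FPKM + 1) over the 9 rats, among 12879 other named genes. The 9 rats share the group differences, so r describes these libraries and carries no test. For Oxct1 they were Nup43, Cpe, Myh7, Tceal7 and Ghitm, with r between 0.981 and 0.991. Myh7, the beta myosin heavy chain of the fetal and failing rodent heart, had means of 67.6, 268.5 and 484.2 FPKM in groups Sham, MI and DAPA. For Slc16a1 they included Flnc, Nol3, Dnaja4 and Prdx6 (r of 0.971 to 0.987). The first, filamin C, an actin crosslinker of muscle, had means of 4.1, 14.9 and 23.5 FPKM.

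Acat1 was most like Unc45b, Ppp1r14c, Gmpr, Shroom3 and Sdhd (r of 0.958 to 0.987). Unc45b, a myosin chaperone, had means of 9.47, 11 and 20.1 FPKM, and Sdhd, a subunit of succinate dehydrogenase, 101.3, 100.9 and 170.5 FPKM. Bdh1 had weaker likenesses, at r of 0.889 to 0.941, led by Mccc2, a subunit of the leucine-degrading methylcrotonyl-CoA carboxylase, with means of 12.8, 12.8 and 17.2 FPKM, then Gja3, Tecrl, Smarca4 and Camta1. Between members, r over the 9 rats was 0.903 for Oxct1 and Slc16a1 and 0.826 for Oxct1 and Acat1, and 0.473 for Bdh1 and Slc16a1.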

How the data were processed

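RNA-seq of poly-A selected RNA from the left ventricles of 9 rats was used. The authors deposited 1 FPKM value per gene and rat, and the number of columns not used was 0. The submitters' processing notes name HISAT2 2.0.5, StringTie 1.3.3b, featureCounts 1.5.0-p3 and DESeq2, and the genome build is not given in the sources used here. Reads were recovered from the steps of the FPKM values for depth and counting error only, as whole reads within 0.02 for 100% of 18896 genes, those detected in 4 or more libraries. Floors of 3 reads per library, at most 2.21e-05% of a total, and counting errors cover counting alone. Relative to the Sham mean, the FPKM denominator per recovered read was 2.07 to 2.25 in the MI rats and 1.65 to 2.14 with DAPA.

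limma 3.58.1 in R 4.3.3 was fitted to log2(FPKM + 1), a scale that understates changes of low genes, with the 2 groups compared and a trended prior variance. Genes reaching 1 FPKM in 3 of the 6 rats were tested. p-values were adjusted by the Benjamini-Hochberg method over all genes tested. The count-based test of the study was not used because the values are FPKM, and the sources used here do not state whether counting used strand, so overlapping genes cannot be told apart. Single values were compared by exact permutation, two-sided. Tests were run on simulated data first. The other steps ran in Python 3.11.15 (matplotlib 3.10.9, numpy 2.4.6, pandas 2.3.3). Promoters are those of RefSeq on GRCr8, found for 4 of 4 members. Listed genes were named where they passed the adjusted threshold against group Sham or had an unadjusted p under 0.05 in DAPA vs. MI, with close relatives of the members named whatever their values, and others were chosen after their values were seen. The members and lists were chosen with earlier results of these data known. Some genes of the pathway lists are not reported here and were left out of their counts. Alternatives were another pseudocount, filter, scaling or fit, and each rat left out.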

Additional observations from a re-analysis of the deposited data

How the results depend on the processing

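Of 12 differences, those of 4 genes in 3 comparisons, a pseudocount of 0.1, no filter, an FPKM of at least 1 in every rat, all 9 rats in 1 fit, no trend, scaling to the total outside the mitochondrial genome and median-of-ratios scaling each left all 12 on the same side of 0 and of the adjusted p of 0.05. The median-of-ratios factors were only 0.9975 to 1.011, so that scaling could hardly move a value and is no separate check. Scaling to the total over all genes, which shifts the median of all genes as given in the report, gave 1.29, -0.14 and 1.15 for Bdh1 in MI vs. Sham, DAPA vs. MI and DAPA vs. Sham, 2.55 for Oxct1 and 1.64 for Acat1 in MI vs. Sham, 1.94 for Acat1 in DAPA vs. Sham and -0.083 for Slc16a1 in DAPA vs. MI; the values against group Sham then passed the adjusted threshold and those in DAPA vs. MI did not. Genes past the adjusted threshold then numbered 11415 in MI vs. Sham, in place of 5261, and 8790 in DAPA vs. Sham, in place of 3822, and by the study's criterion 9231 in place of 3024, 585 in place of 273 (DAPA vs. MI) and 6662 in place of 2364. Of the higher and lower calls at an adjusted p in MI vs. Sham, 11124 were then higher and 291 lower, against 2626 and 2635. The other pathway genes, under alternatives added after seeing the data, then gave 23, 0 and 19 past the adjusted threshold and 23, 1 and 19 at an unadjusted p under 0.05 in MI vs. Sham, DAPA vs. MI and DAPA vs. Sham, and without MI replicate 2 they gave 3 past the adjusted threshold in MI vs. Sham and 1 at an unadjusted p in DAPA vs. MI. With an FPKM of at least 1 in every rat, 2007 genes met the study's criterion in MI vs. Sham.

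With single rats left out, MI vs. Sham ranged from -0.33 to 0.11 in Bdh1, 0.54 to 1.49 in Oxct1 and -0.23 to 0.41 in Acat1, and DAPA vs. MI from -0.021 to 0.59 in Slc16a1, where directions turned in Bdh1, Acat1 and Slc16a1, and Oxct1 passed the adjusted threshold without MI replicate 2. The directions that turned were without Sham replicate 2, MI replicate 1 or MI replicate 2 in Bdh1 (0.04, 0.10 and 0.11), without Sham replicate 1 or MI replicate 3 in Acat1 (-0.14 and -0.23) and without MI replicate 2 in Slc16a1. Oxct1 and Slc16a1 in DAPA vs. Sham and Slc16a1 in MI vs. Sham stayed past the adjusted threshold without any one rat. Gene counts ranged from 3242 (without MI replicate 1) to 4471 in MI vs. Sham, 0 to 2 in DAPA vs. MI and 1802 (without DAPA replicate 1) to 3050 in DAPA vs. Sham at an adjusted p of 0.05, and from 111 (without MI replicate 2) to 561 (without MI replicate 3) by the study's criterion in DAPA vs. MI. In DAPA vs. MI, Oxct1 ranged from 0.27 to 1.22, Acat1 from 0.37 to 1.01 and Bdh1 from 0.04 to 0.47. The log2 ratios between members and the levels relative to cardiomyocyte markers moved by less than 1 SD, but small ones turned: Bdh1/Acat1 in MI vs. Sham ranged from -0.32 to 0.07, Bdh1/Slc16a1 and Oxct1/Acat1 in DAPA vs. MI from -0.21 to 0.13 and from -0.11 to 0.21, and Oxct1/Slc16a1 in DAPA vs. Sham from -0.17 to 0.29.

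Rats with the same replicate number did not deviate together in every pair, with mean correlations of 0.0207 in MI vs. Sham, -0.184 in DAPA vs. MI and 0.102 in DAPA vs. Sham, so the number was taken as a name. With the replicate number as a block, Acat1 in DAPA vs. Sham gave 0.78 with a limma adjusted p of 0.0468, and no other of the 12 calls differed. The cause of these movements was not tested. Bdh1, with 116 reads in its shallowest library, was the member with the lowest coverage. Its counting error there, 9.28%, was still below its spread between rats in each group.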
